A study of Rattus norvegicus with 10 samples.

Results

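Fbxo40, Fbxo32, Fbxl22, Trim63, Trim54, Trim55, Klhl40 and Klhl41 encode ubiquitin ligase components that are enriched in striated muscle. They were taken from the table of deposited expression values by exact match of the gene symbol, and all 8 were found among 18025 listed genes. The members were chosen by their FPKM in HG against CON, with earlier results of these data at hand, so the values of its members in that contrast are given as a description without a test. RNA sequencing had been run on fetal rat hearts at embryonic day 19.5, with 5 libraries from the control (CON) group and 5 from the hyperglycemia (HG) group. All dams were wild-type Sprague-Dawley rats aged 3 months and mated with wild-type males. HG dams had been made diabetic by daily intraperitoneal streptozotocin, a toxin of pancreatic beta cells, and CON dams received the citric acid buffer alone. The study's methods place these injections after mating, while its introduction places the hyperglycemia before pregnancy. No fetus carried an engineered allele. The agent was given only with diabetes, so exposure to the drug and to high glucose cannot be told apart. The sources used here do not say which dam or litter each heart came from, so the p-values below measure the spread between libraries. They also describe the RNA in different ways: the labels name heart tissue, while the study's text also mentions isolated cardiomyocytes and pooled RNA. The 10 deposited columns differ from each other.

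Ubiquitin ligases attach ubiquitin to chosen proteins, most often marking them for the proteasome, and in striated muscle they set the turnover of the sarcomere and of signaling proteins. F-box proteins are the substrate receptors of SCF ligases, in which a cullin scaffold joins the receptor to a RING subunit and an E2 enzyme. TRIM proteins carry their own RING finger. BTB-Kelch proteins join substrates to the cullin CUL3. Fbxo32 (atrogin-1) and Trim63 (MuRF1) are widely used as transcriptional markers of muscle atrophy, and the diseases linked to KLHL40 and KLHL41 are nemaline myopathies.

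Expression was deposited as FPKM, which are reads scaled by gene length and by library size. The libraries held 17639895 to 18240006 reads on genes in CON and 16672876 to 19109844 in HG, recovered from the steps of the FPKM values. Summed FPKM of 16 cardiomyocyte markers was 17260 to 17837 in CON and 14009 to 15355 in HG, and 10 of these markers fell and 2 rose. Of 18 skeletal muscle markers, Myf5 and Pax7 were not listed, another 8, Myod1 and Myh4 among them, averaged under 0.1 FPKM, and the sum was 6.87 to 9.998 FPKM in CON and 9.43 to 15.6 in HG. Smooth muscle markers summed to 768 to 892 FPKM in CON and 983 to 1234 in HG, with 3 of 7 higher and 1 lower. Fibroblast markers summed to 1742 to 2029 and 1565 to 1797 FPKM (2 of 9 higher, 5 lower), endothelial markers to 295 to 323 and 306 to 337 (3 of 9 higher), and macrophage markers to 38.7 to 49.4 and 45.1 to 56.9 (2 of 8 higher, 1 lower). Red cell markers were at 63.6 to 115 FPKM in CON and 42.8 to 61.2 in HG (5 of 9 lower, 0 higher). Liver markers were at 3.08 to 63.1 FPKM in CON and 1.34 to 2.79 in HG (4 of 8 lower, 0 higher). Their sum was 63.1 FPKM in CON replicate 3 against at most 7.82 in every other library. Markers of these other cells were thus present beside those of cardiomyocytes. Y-linked genes were high in 2 libraries of each group. In RNA from whole tissue, fewer cells of a type and less RNA per cell cannot be told apart.

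The promoters that hold a MEF2 site, or the FOXO and glucocorticoid receptor sites of the atrophy response, are shown first. RefSeq promoters (GRCr8, 250 bases before the start of the gene) were found for 6 of the 8 members, all but Fbxo32 and Trim55. They were searched on both strands for the MEF2 site, the CArG box of serum response factor, the FOXO site TGTTTAC, the glucocorticoid receptor half-site TGTTCT, the E-box CANNTG of MyoD-type factors, the M-CAT element CATTCC and the TATA box TATAAA. A MEF2 site, found in 2.96% of all 33469 promoters, lay in those of Fbxo40, Klhl40 and Klhl41. Of the 6 promoters searched, only that of Trim63 held the FOXO site (3.21% of all promoters) or the glucocorticoid half-site (17.5%). There they adjoin at 205 to 199 and at 211 to 206 bases before the start. The promoters of Fbxo32 and Trim55 were not searched. The 4 promoters lie at chr11:77299873-77300122 (Fbxo40), chr8:130318543-130318792 (Klhl40), chr3:74841868-74842117 (Klhl41) and chr5:151816986-151817235 (Trim63), all on the plus strand. Capitals mark the MEF2 site in the first 3 and the half-site followed by the FOXO site in Trim63.
Fbxo40: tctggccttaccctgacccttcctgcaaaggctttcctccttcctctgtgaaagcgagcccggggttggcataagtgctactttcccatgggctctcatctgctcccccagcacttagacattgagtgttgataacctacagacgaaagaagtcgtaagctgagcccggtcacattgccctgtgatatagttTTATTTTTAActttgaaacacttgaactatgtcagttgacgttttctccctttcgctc
Klhl40: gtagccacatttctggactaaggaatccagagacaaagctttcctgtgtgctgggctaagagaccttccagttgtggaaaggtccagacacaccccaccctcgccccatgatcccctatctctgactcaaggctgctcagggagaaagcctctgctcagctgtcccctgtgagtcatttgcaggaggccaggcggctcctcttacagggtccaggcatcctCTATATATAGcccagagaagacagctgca
Klhl41: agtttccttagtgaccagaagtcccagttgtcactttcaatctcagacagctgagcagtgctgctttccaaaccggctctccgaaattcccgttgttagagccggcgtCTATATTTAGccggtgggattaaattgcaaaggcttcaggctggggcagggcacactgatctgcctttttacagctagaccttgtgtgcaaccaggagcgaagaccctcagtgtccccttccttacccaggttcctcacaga
Trim63: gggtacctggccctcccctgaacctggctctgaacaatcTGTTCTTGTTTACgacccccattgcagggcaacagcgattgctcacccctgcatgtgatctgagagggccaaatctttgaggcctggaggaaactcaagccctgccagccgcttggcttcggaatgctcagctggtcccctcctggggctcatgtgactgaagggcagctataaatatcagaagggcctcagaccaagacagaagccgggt

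The MEF2 letters were TTATTTTTAA at 58 to 49 bases before the start of Fbxo40, CTATATATAG at 29 to 20 bases before Klhl40 and CTATATTTAG at 142 to 133 bases before Klhl41. The CArG box (1.5% of promoters) was found in Fbxl22, the M-CAT element (12.1%) in Fbxl22, Trim63 and Trim54, and the TATA box (12.9%) in Trim63. An E-box, present in 65.5% of promoters, was found in all 6. The matches describe the letters only.

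Among the F-box receptors, Fbxo40 had the largest difference between the groups. Fbxo40 (NCBI Gene 363790) is a muscle-restricted receptor known to target the insulin receptor substrate IRS1. It stood at 19.2, 17.8, 18.1, 17.8 and 18.2 FPKM in CON replicates 1 to 5 and at 9.42, 9.49, 8.47, 8.86 and 9.17 FPKM in HG replicates 1 to 5. Each HG library was far below each CON library. The means were 18.2 ± 0.601 and 9.08 ± 0.421 FPKM (SD, n = 5 each), a change of -50.1%, and the log2 fold change was -0.997 (SE 0.0454), taken like all others here on the log2(FPKM + 0.1) scale. Only 173 of 14542 genes tested had a lower value. These levels rest on 1255 to 1370 reads in each CON library and on 578 to 708 in each HG one.

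Fbxl22 (NCBI Gene 363083) is a cardiac F-box protein of the sarcomere known to act on alpha-actinin and filamin C. Its levels were 30.5, 25.9, 29.7, 28.2 and 28.1 FPKM in CON and 22.2, 24.1, 21.2, 20.5 and 17.4 FPKM in HG. The groups did not overlap, and HG replicate 5 was the lowest library. The means were 28.5 ± 1.76 and 21.1 ± 2.46 FPKM, a change of -26.0% (log2 fold change -0.44, SE 0.0761). Fbxo32 (NCBI Gene 171043), the atrogin-1 receptor known for calcineurin and the translation factor eIF3f as substrates, differed less. It was at 16.2, 14.4, 15.0, 17.8 and 15.2 FPKM in CON and 11.8, 13.1, 14.2, 14.0 and 14.6 FPKM in HG. The groups overlapped because HG replicate 5 lay above CON replicate 2. The other 4 HG libraries lay below every CON library, and the mean went from 15.7 ± 1.36 to 13.5 ± 1.13 FPKM (log2 fold change -0.22, SE 0.0705). The ratio of Fbxo40 to Fbxo32 was 1.16 ± 0.0965 in CON (0.996 to 1.24) and 0.677 ± 0.0841 in HG (0.598 to 0.800), so Fbxo40 was the more abundant of the pair in most CON libraries and the less abundant in every HG library.

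The MuRF family of TRIM ligases differed less between the groups than Fbxo40, and its most abundant member, Trim55, did not separate them. Trim63 (NCBI Gene 140939) encodes MuRF1, a RING ligase that binds titin at the M band and is known to act on myosin and creatine kinase. It was measured at 80.4, 83.9, 86.0, 90.2 and 78.8 FPKM in CON and at 63.1, 65.7, 67.5, 67.6 and 71.0 FPKM in HG. All HG libraries were below all CON libraries. The mean was 83.9 ± 4.54 in CON and 67.0 ± 2.91 FPKM in HG (log2 fold change -0.32, SE 0.0442). Trim54 (NCBI Gene 362708) encodes MuRF3, which associates with microtubules and the Z disc. Its levels were 27.1, 25.5, 27.1, 28.5 and 30.0 FPKM in CON and 23.0, 22.4, 20.5, 22.3 and 25.5 FPKM in HG. The groups came close without overlapping, since CON replicate 2 and HG replicate 5 differed only in the next decimal. The means were 27.6 ± 1.69 and 22.7 ± 1.78 FPKM (log2 fold change -0.28, SE 0.0590).

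Trim55 (NCBI Gene 365751) encodes MuRF2, a titin-binding ligase known for its place in early sarcomere assembly, and was the highest of the members. It was at 167, 174, 164, 165 and 168 FPKM in CON and at 174, 163, 169, 174 and 182 FPKM in HG. The groups overlapped widely. The means were 167.8 ± 3.68 and 172.5 ± 6.98 FPKM, with a log2 fold change of 0.039 (SE 0.0348) that became -0.051 when the libraries were scaled by median-of-ratios factors. Of the summed FPKM of the MuRF genes, Trim55 made up 60.1% ± 1.32 in CON (58.2% to 61.4%) and 65.8% ± 0.741 in HG (64.9% to 66.9%). Trim63 made up 30.0% ± 1.32 and 25.6% ± 0.798, and Trim54 made up 9.90% ± 0.655 and 8.67% ± 0.459. The ratio of Trim55 to Trim63, which does not depend on how a library is scaled, was 1.83 to 2.13 in CON and 2.48 to 2.76 in HG.

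**Figure D1:**
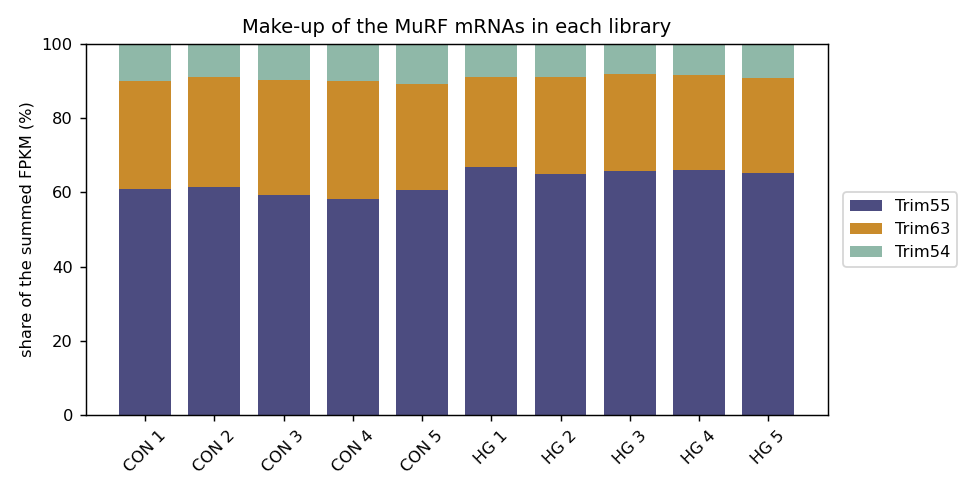
Share of the summed FPKM of Trim63, Trim54 and Trim55 taken by each gene, in percent, for each of the 5 CON and 5 HG libraries. The Trim55 share was 58.2% to 61.4% in CON and 64.9% to 66.9% in HG.

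The CUL3 adaptors Klhl40 and Klhl41, which are known to stabilise nebulin and other thin filament proteins in skeletal muscle, differed to unequal extents. Klhl40 (NCBI Gene 316088) was the lowest of the members. It was at 3.37, 3.78, 4.51, 4.32 and 3.45 FPKM in CON and at 1.84, 2.58, 2.68, 2.19 and 1.92 FPKM in HG. The groups did not overlap. The means were 3.89 ± 0.510 and 2.24 ± 0.380 FPKM, a change of -42.3% (log2 fold change -0.77, SE 0.122). With 139 to 181 reads in a CON library and only 73 to 108 in an HG one, the counting error of a Klhl40 value was about 7.93% in CON and 10.5% in HG. Klhl41 (NCBI Gene 117537) was at 32.5, 34.8, 32.3, 32.8 and 29.8 FPKM in CON and at 31.4, 26.9, 27.7, 29.1 and 30.9 FPKM in HG. The groups overlapped, with 3 HG libraries below the lowest CON library. The means were 32.4 ± 1.77 and 29.2 ± 1.93 FPKM (log2 fold change -0.15, SE 0.0529). The ratio of Klhl41 to Klhl40 was 7.16 to 9.63 in CON and 10.3 to 17.1 in HG.

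**Figure D2:**
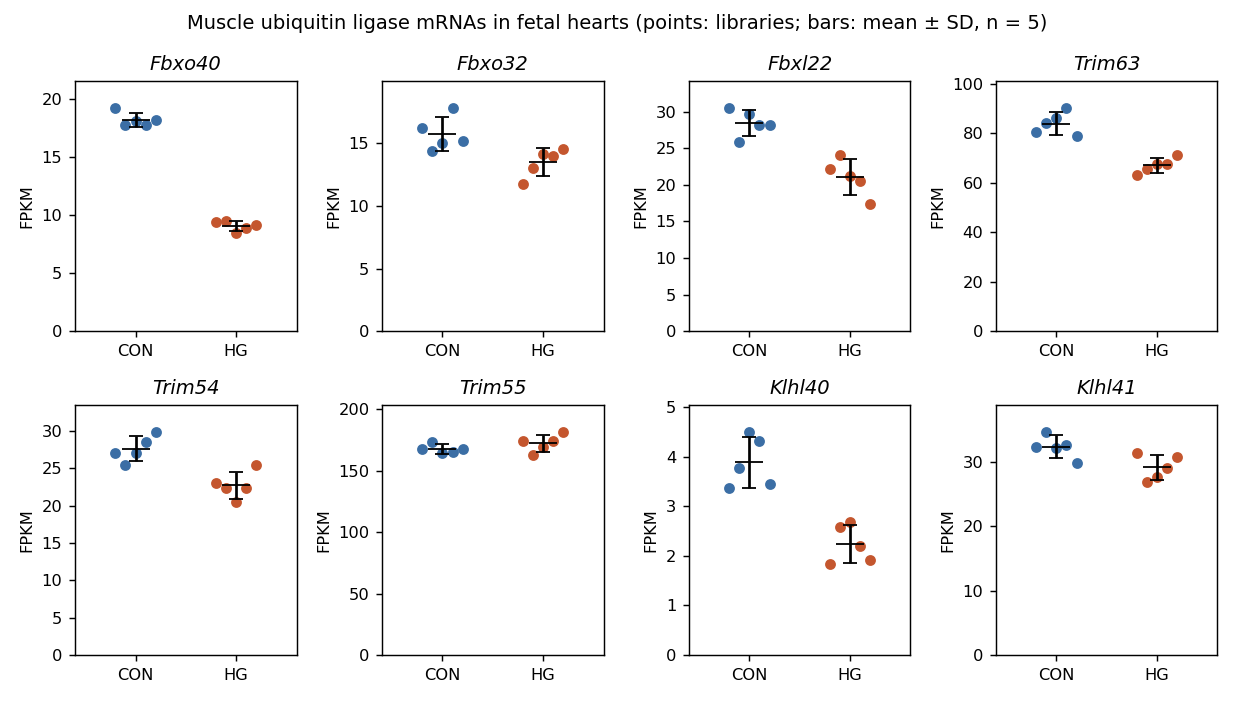
FPKM of each of the 8 genes in each library, with 1 panel per gene, points for the 5 CON and 5 HG libraries, and the mean with its SD. Relative to the CON mean, the change was largest for Fbxo40 (-50.1%) and Klhl40 (-42.3%), and Trim55 lay at 163 to 182 FPKM in both.

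FPKM is corrected for gene length, so the levels of the genes were also set in order. In CON the order of mean levels was Trim55, Trim63, Klhl41, Fbxl22, Trim54, Fbxo40, Fbxo32 and Klhl40. Among neighbors in this order, Klhl41 and Fbxl22, Fbxl22 and Trim54, and Fbxo40 and Fbxo32 overlapped between libraries. In HG the order was Trim55, Trim63, Klhl41, Trim54, Fbxl22, Fbxo32, Fbxo40 and Klhl40, and only Trim54 and Fbxl22 overlapped. The levels ran from the percentile 37.8 of all tested genes in CON (Klhl40) to 97.2 (Trim55). The spread within a group, as SD over mean, was smallest for Trim55 in CON at 2.19% and largest for Klhl40 in HG at 16.9%.

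Across the whole table, limma called 5836 of 14542 tested genes at an adjusted p under 0.05, which is 40.1%. Of all tested genes, 11.8% were called lower in HG and 28.4% higher. Of the members, all of which passed the expression filter, 7 of 8 were called lower, every one but Trim55. The groups did not overlap in 8.12% of all tested genes with HG lower and in 19.3% with HG higher, and HG was lower without overlap for 5 of the 8 members (Fbxo40, Fbxl22, Trim63, Trim54 and Klhl40). An adjusted p under 0.05 together with a fold above 2 was met by 1.94% of all genes (1.07% lower and 0.866% higher in HG) and by 0 of 8 members, with 7 members and 48.5% of all genes at an unadjusted p under 0.05. Fbxo40 lay at this limit and passed it under 10 of 22 alternatives, among them median-of-ratios factors, quantile normalization and limma voom on the recovered reads. Nothing is read from these counts, since the list was made from this contrast. The calls of Fbxo32 and Klhl41 were the least stable, and 5 members were called without CON replicate 1, without CON replicate 4 or without HG replicate 2. Without CON replicate 3, the library with the most liver transcripts, 6 were called.

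The median log2 fold change was -0.30 over the members and 0.093 over all genes. With median-of-ratios factors these medians were -0.39 and 0.0058. The factors separated the groups, at 0.967 to 0.975 in CON and 1.02 to 1.06 in HG. Hemoglobin genes took a share of 3.27% ± 0.873 of summed FPKM in the CON group and of 2.24% ± 0.264 in the HG group. The share of all tested genes called lower was 17.5% on the median-of-ratios scale. There the log2 fold changes were -1.09 for Fbxo40, -0.86 for Klhl40, -0.53 for Fbxl22, -0.41 for Trim63, -0.37 for Trim54, -0.31 for Fbxo32 and -0.24 for Klhl41.

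The cardiomyocyte markers were also lower in HG, their median log2 fold change being -0.28, and this moved with the members. After the markers had been seen to differ, each library was therefore also scaled to them. On that scale Fbxo40 still separated the groups, with a log2 fold change of -0.73 (SE 0.0539, a change of -39.8%), and so did Klhl40 at -0.51 (SE 0.121, -30.3%). Trim55 separated them in the other direction at 0.31 (SE 0.0436). Fbxl22 at -0.17, Trim63 at -0.054, Trim54 at -0.012, Fbxo32 at 0.053 and Klhl41 at 0.12 overlapped between the groups. Of the members, only Fbxo40 and Klhl40 were lower in HG with no overlap after this scaling. Nothing is read from that count, since the list was made from the contrast of these groups. The scaling used the median of the marker ratios and did not make the markers equal. On the FPKM scale their log2 fold changes ran from -1.03 (Myh6) to 0.28 (Tbx5). The median over all genes was 0.35 on the marker scale, above the value of Trim55, with 9777 genes called higher and 567 lower. The share of all genes whose groups did not overlap on that scale was not counted. The rises among smooth muscle and skeletal muscle markers went the other way from the members, and their part in the result was not tested.

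**Figure D3:**
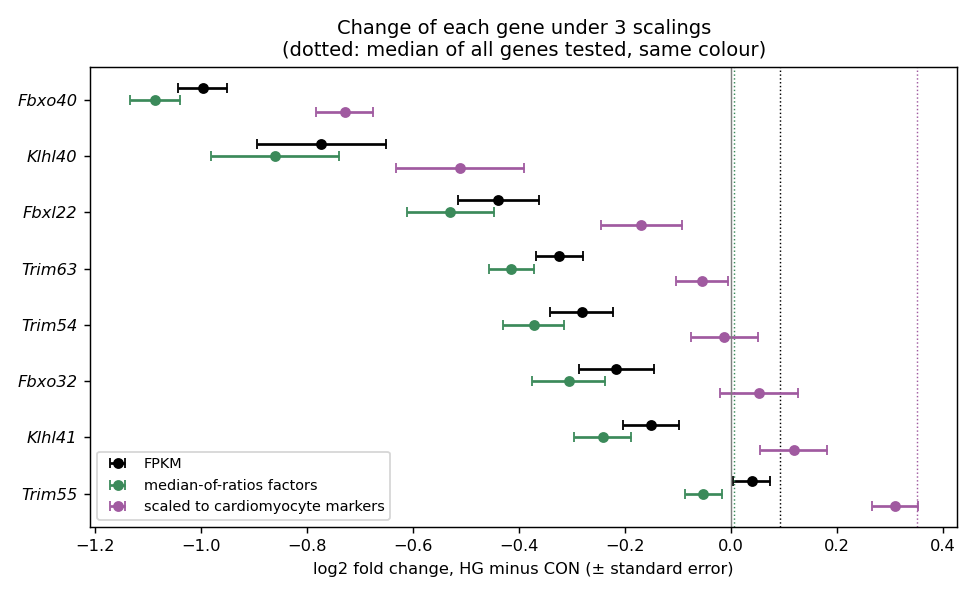
Log2 fold change (HG minus CON) of each member with its standard error, on the deposited FPKM scale, after median-of-ratios scaling and after scaling to cardiomyocyte markers, with dotted lines at the median of all genes on each scale. Fbxo40 and Klhl40 were below 0 on every scale, at -0.73 and -0.51 on the last, while Trim55 went from 0.039 and -0.051 to 0.31.

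The members were next placed within their gene families, taken by symbol. Of 58 tested F-box genes with the members included, Fbxo40 ranked 1 and Fbxl22 ranked 2 by size of fall, and Fbxo32 ranked 8. By level in CON they ranked 8, 2 and 10. Of 43 TRIM genes, Trim63, Trim54 and Trim55 ranked 3, 6 and 1 by level and 7, 8 and 21 by fall. Of 41 Kelch genes, Klhl40 ranked 23 by level and 1 by fall, and Klhl41 ranked 3 and 9. These ranks restate the contrast from which the list was made. Among the other 55 tested F-box genes, 13 rose and 5 fell. Among 40 other TRIM genes 11 rose and 7 fell, and among 39 other Kelch genes 7 rose and 6 fell. The shares lower were 9.09%, 17.5% and 15.4%, against 11.8% of all tested genes, of which 28.4% were higher. The family medians were 0.11, 0.047 and 0.038, and with median-of-ratios scaling 0.031, -0.025 and -0.019, so the sign turned for the TRIM and Kelch families. On that scale 4 F-box genes rose and 6 fell, 8 TRIM genes rose and 8 fell, and 3 Kelch genes rose and 10 fell. Of all tested genes, 2271 rose there and 2551 fell (17.5%).

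Within the families, the largest falls outside the list belonged to Trim50 (log2 fold change -1.84, adjusted p = 7.88e-05), which went from 2.40 to 0.602 FPKM, and to Trim7 (-0.85, adjusted p = 0.000151), a ligase that binds the glycogen primer glycogenin. Trim72 and Klhl31 also fell. The largest rises were of Trim6 (0.95, adjusted p = 0.00262), Klhl36 (0.74, adjusted p = 0.00155) and Fbxl19 (0.55, adjusted p = 1.77e-05). Smaller rises were seen for Fbxo16 (0.52), Fbxl21 (0.48), Trim56 (0.36), Trim37 (0.36), Klhl4 (0.38) and Klhl5 (0.33). Fbxo27 (-0.35), Fbxo4 (-0.28), Fbxo6 (-0.24), Klhl33 (-0.44) and Klhl42 (-0.38) fell. Of these, Fbxo6 had the opposite sign (0.024) when scaled to cardiomyocyte markers, where the median of all genes was 0.35.

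**Figure D4:**
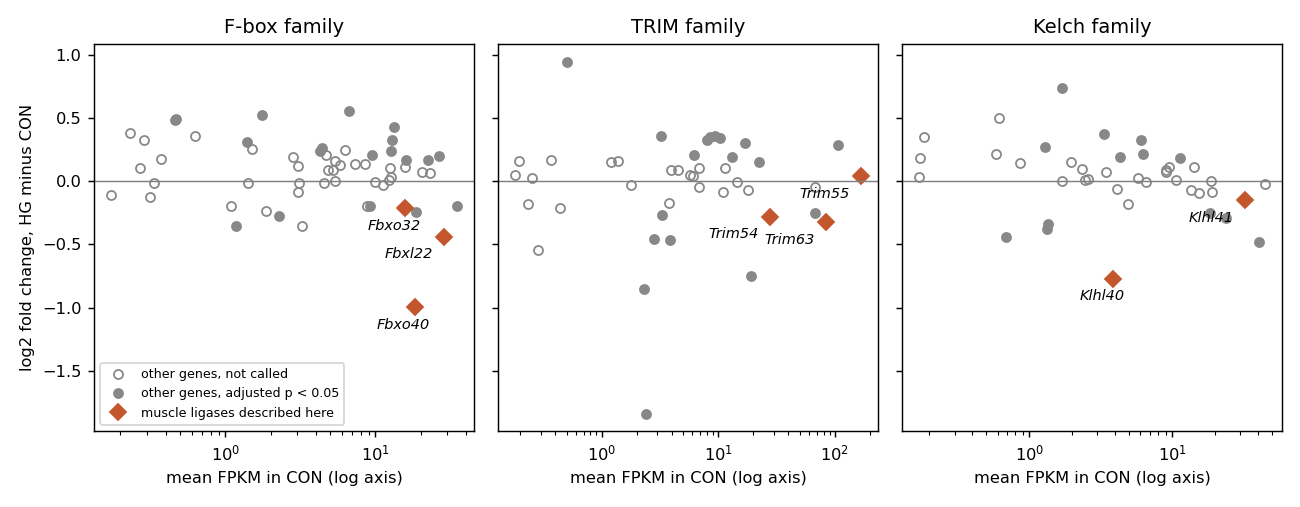
Log2 fold change (HG minus CON) of the tested F-box, TRIM and Kelch genes against their mean FPKM in CON (log axis), with called genes filled and the members named. Fbxo40 and Klhl40 had the lowest fold change of their families, and Trim50 at -1.84 the lowest of the TRIM genes.

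Genes of the shared machinery on which the members depend are given beside all tested genes, of which 11.8% were lower and 28.4% higher. Of 18 genes of the cullin-RING core (cullins, SKP1, RING subunits and the NEDD8 cycle that activates cullins), 9 rose and 1 fell (5.56%). The median was 0.096 on the log2 scale, near the 0.093 of all genes. Cul4b rose by 0.37 (adjusted p = 0.000374), Cand1, the exchange factor of SCF receptors, by 0.18 (adjusted p = 0.000946) and Nae1, of the NEDD8-activating enzyme, by 0.19 (adjusted p = 0.0429). Ube2f, an E2 for NEDD8, stood at -0.15 (adjusted p = 0.0338), which became 0.12 when scaled to cardiomyocyte markers. On the marker scale the median of all genes was 0.35. With median-of-ratios factors 1 of the core genes rose and 2 fell, beside 2271 and 2551 of all tested genes. Of 21 ubiquitin E1 and E2 enzymes, Ube2e1 (0.17, adjusted p = 0.0317) and Ube2e2 (adjusted p = 0.0481) rose. Neither rise was called with median-of-ratios factors, where 2 enzymes fell, or with quantile normalization, where 1 fell. The median of these enzymes was 0.056, and -0.034 with median-of-ratios factors.

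Of 27 other ligases known from muscle, 4 rose and 3 fell (11.1%), against 28.4% and 11.8% of all tested genes. Trim72, the membrane repair protein MG53, went from 19.2 ± 4.10 to 11.2 ± 0.790 FPKM (-0.75, adjusted p = 0.000353). Klhl31, a Kelch protein of striated muscle, went from 40.3 to 28.8 FPKM (-0.48, adjusted p = 6.24e-06), and Kbtbd12 had -0.34 (adjusted p = 0.0108). Trim72 and Klhl31 remained lower when scaled to cardiomyocyte markers, at -0.48 and -0.21. Nedd4 (0.38, adjusted p = 6.80e-06), Trim32 (0.33, adjusted p = 0.00528) and Fbxo21 (0.20, adjusted p = 0.000361) rose. The median of this list was 0.088, and -0.0017 with median-of-ratios factors, when 3 rose and 5 fell. With those factors 2271 of all tested genes rose and 2551 fell.

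Of 25 tested substrates and sarcomere partners of the members, 13 fell (52.0%) and 2 rose, against 11.8% and 28.4% of all tested genes. Their median of -0.18 turned to 0.086 when scaled to cardiomyocyte markers, on which scale 6 fell and 10 rose. The median of all genes there was 0.35, above that of the list, with 567 genes called lower and 9777 higher. The list shares 6 genes with those markers, and of its other 19 genes 7 fell. Lmod3, an actin nucleator of the thin filament that KLHL40 is known to stabilise, went from 3.62 to 1.35 FPKM (-1.38, adjusted p = 3.67e-05). Nrap, a Z disc assembly protein tied to KLHL41, went from 47.5 to 29.1 FPKM (-0.71, adjusted p = 9.97e-06). Ckm, the muscle creatine kinase on which MuRF1 acts, went from 1013 to 518 FPKM (-0.97, adjusted p = 6.36e-07), and Myh6, the alpha myosin heavy chain, had -1.03 (adjusted p = 1.97e-06). Lmod3, Myh6 and Ckm were named as the 3 largest falls of the list, so the size of their falls followed from that choice. Lmod3, Nrap and Ckm were still lower when scaled to the cardiomyocyte markers, at -1.12, -0.44 and -0.70.

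Of the genes with a direct tie to a member, several did not pass the test. Ligases act on proteins, while these values are mRNA levels, which do not show how much substrate protein was present. Irs1, the Fbxo40 substrate, stood at 0.066 (adjusted p = 0.705), and at -0.024 with median-of-ratios factors. Eif3f (-0.076, adjusted p = 0.156) and Ppp3ca (0.11, adjusted p = 0.174), both tied to Fbxo32, did not pass the test. Of the Fbxl22 substrates, Actn2 fell (-0.31, adjusted p = 0.000318) and Flnc did not pass (0.021, adjusted p = 0.767), and Actn2 no longer passed when scaled to the markers, of which it is one. Neb, which encodes nebulin, averaged 0.074 FPKM in CON and 0.050 in HG and was under the expression filter. Sqstm1, the autophagy receptor p62, rose (adjusted p = 0.0273), and so did the myogenic factor Myog (0.76, adjusted p = 0.0237) at 0.278 and 0.540 FPKM.

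Of 31 tested upstream regulators, 8 fell (25.8%) and 6 rose, against 11.8% and 28.4% of all tested genes. This balance moved with the scaling. With median-of-ratios factors 13 fell and 3 rose, with quantile normalization 11 and 3, and on the cardiomyocyte marker scale 1 and 21. Of all tested genes, 2551 fell and 2271 rose with median-of-ratios factors, and 2317 and 2615 with quantile normalization. On the marker scale 567 of all genes fell and 9777 rose. Klf15, a glucocorticoid-induced activator of atrogenes, went from 7.51 to 5.05 FPKM (-0.57, adjusted p = 0.000183). Foxo3, the forkhead factor known to drive Fbxo32 and Trim63, went from 10.5 to 8.56 FPKM (-0.30, adjusted p = 0.00156), and it no longer passed when scaled to cardiomyocyte markers (-0.030). Tfeb (-0.22, adjusted p = 0.0207) and the glucocorticoid receptor Nr3c1 (-0.19, adjusted p = 0.00731) also fell. Both had the opposite sign (0.048 and 0.077) on the marker scale, below the median of 0.35 over all genes. Foxo1 (0.039, adjusted p = 0.682), Mef2a (-0.010, adjusted p = 0.867) and Mef2c (adjusted p = 0.384) did not pass the test. The activin receptor Acvr2b (0.50, adjusted p = 0.000627), the AMPK subunit Prkaa1 (0.38, adjusted p = 7.90e-05) and Irs2 (0.30, adjusted p = 0.0104) rose. The list median was -0.0083, and -0.099 with median-of-ratios factors.

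**Figure D5:**
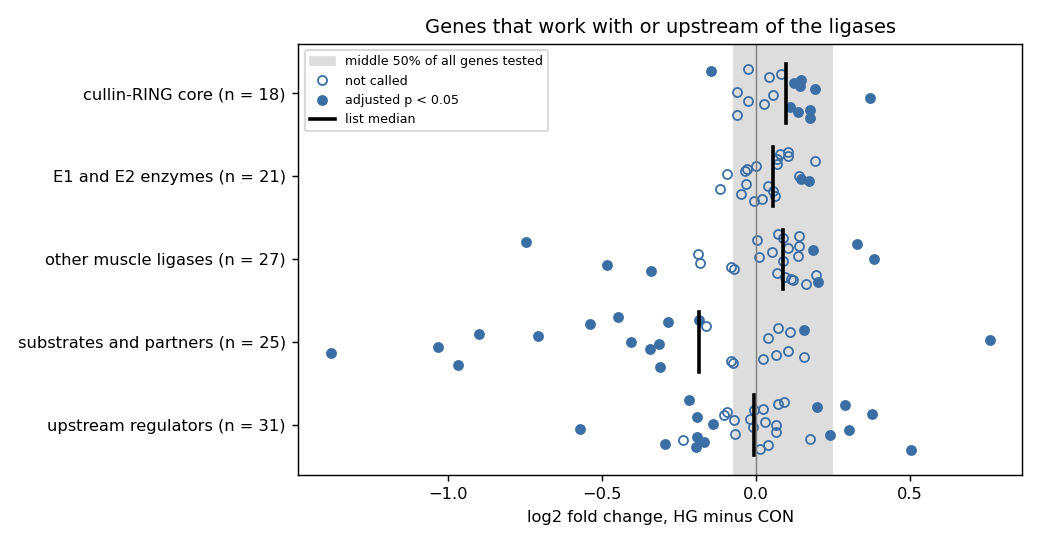
Log2 fold change (HG minus CON) of each tested gene of the 5 pathway lists, filled where called, with a bar at the median of each list and a grey band over the middle 50% of all genes tested. The medians were -0.18 for substrates and partners and 0.096 for the cullin-RING core.

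For the members with an absolute log2 fold change above 0.5, the genes with the most similar pattern over the 10 libraries were looked up among 11709 genes of at least 1 FPKM, by the root mean square difference of log2 values centered on each gene's mean. Nearest to Fbxo40 were Lpl (0.0560), which encodes lipoprotein lipase and went from 43.1 to 21.7 FPKM, Ckm (0.0772) and Ncam1 (0.0800). Nearest to Klhl40 were Pdk2 (0.137), a kinase that inhibits pyruvate dehydrogenase, Lrrc14b (0.142) and Eepd1 (0.143). All 6 were lower in HG, with log2 fold changes of -0.68 to -0.98. The search matched genes on their values in both groups, so this direction was fixed by it.

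Gene Ontology terms shared by the members follow from the choice of the list as muscle ubiquitin ligases and are given as a description. Protein ubiquitination was given to 7 of 8, all but Klhl40, and to 400 genes of the table. Ubiquitin protein ligase activity was given to 5. The Z disc, the border of the sarcomere, was given to Fbxo32, Fbxl22, Trim63 and Trim54, among 131 genes of the table. Klhl40 and Klhl41 shared the CUL3 complex term.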

How the data were processed

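The authors deposited FPKM per gene for 10 libraries. The submitters' processing notes name fastp, HISAT2, HTSeq, R 3.2.0 and the build mRatBN7.2, without stating a role for each. The annotation, strand setting and treatment of reads shared between genes are not given in the sources used here. FPKM depends on what a few abundant genes take of a library, so other scalings were tried. Groups came from the labels, and 0 columns of per-sample values were left unused. The members and gene lists were chosen with earlier results of these data known.

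From the deposited FPKM, log2(FPKM + 0.1) of genes averaging 0.1 FPKM or more was compared between HG and CON with limma 3.58.1 (R 4.3.3, mean-variance trend, moderated test, two-sided, Benjamini-Hochberg over all 14542 genes). FPKM values are no counts, so the count test of the study's methods was replaced. Whole reads, to within 0.02 of a read, were recovered for all 18025 genes and used in limma voom as an alternative. The fitting and recovery code was tested on simulated data. From each list, up to 3 called genes with the largest rise and 3 with the largest fall were named, plus genes with a known direct tie to a member. Each library was left out in turn. Promoters and gene IDs were RefSeq's (GRCr8), and no coordinates of the files' build were used. Tables were handled in Python 3.11.15 with pandas 2.3.3.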

Additional observations from a re-analysis of the deposited data

Results flagged for a closer look

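In 10 of the 116 sets of 5 libraries examined, 1 library lay far from the other 4 by Dixon's 95% critical value, where chance gives about 1 in 20. Fbxo40 in CON was highest in replicate 1 at 19.2 FPKM, against 17.8 to 18.2 in the others, and still stood apart from all HG libraries. In the same library Fbxo6 was high at 20.8 FPKM (17.7 to 18.3) and Fbxl21 low at 0.252 FPKM (0.466 to 0.548). Acvr2b was high in CON replicate 4 at 2.54 FPKM (1.96 to 2.00). Prkaa1 was high in CON replicate 3 at 9.73 FPKM (8.82 to 8.98) and in HG replicate 3 at 12.6 FPKM (11.5 to 11.7). Foxo3 was high in HG replicate 2 at 9.83 FPKM (8.13 to 8.46). Low values in HG were Fbxo21 in replicate 5 at 29.3 FPKM (30.5 to 30.9), Trim6 in replicate 1 at 0.587 FPKM (1.11 to 1.32) and Irs1 in replicate 4 at 6.40 FPKM (8.59 to 9.35).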

How the results depend on the processing

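With a fold above 2 also required, 282 genes and 0 members were called. Scaling to cardiomyocyte markers was chosen after seeing the data. On that scale 9777 genes and 1 member (Trim55) were called higher, and 567 genes and 2 members lower. This scaling called 10344 of 14542 tested genes, 3 members, 17 of the cullin-RING core and 20 E1 and E2 enzymes. It also called 23 other muscle ligases, 22 upstream regulators, 37 F-box, 28 TRIM and 27 Kelch genes. It gave log2 fold changes of -0.73 for Fbxo40, 0.053 for Fbxo32, -0.17 for Fbxl22, -0.054 for Trim63, -0.012 for Trim54, 0.31 for Trim55, -0.51 for Klhl40 and 0.12 for Klhl41, and it turned Ube2f (0.12), Tfeb (0.048), Fbxo6 (0.024), Eif3f (0.19), Nr3c1 (0.077) and Mef2a (0.26). Median-of-ratios factors called 3 core and 10 F-box genes, gave -1.09 for Fbxo40, -0.41 for Trim63, -0.051 for Trim55 and -0.24 for Klhl41, and turned Irs1 (-0.024), Flnc (-0.070), Foxo1 (-0.049) and Mef2c (-0.025). Quantile normalization called 5 core, 1 E1 or E2 and 11 F-box genes, gave -1.09 for Fbxo40, and turned Irs1 (-0.021), Foxo1 (-0.062) and Mef2c (-0.0083). A pseudocount of 1 gave -0.93 for Fbxo40. Of the E1 and E2 enzymes, 1 was called with no filter or with no trend, and 0 without hemoglobin genes. Without a trend 6 core genes were called. The percent of calls that were lower in HG was 29.3, or 52.9 with median-of-ratios factors, 47.0 with quantile normalization and 5.48 on the marker scale. The cause was not tested. Replicate numbers are shared by the groups, but the deviations of same-numbered libraries correlated at -0.126 to 0.108, so the numbers were not taken as pairs. With the replicate block, 5096 genes, 6 members (Klhl41 was lost) and 6 core genes were called. Leaving out 1 library gave 5059 to 5627 genes, 5 to 7 members, 6 to 8 core genes, 0 to 2 E1 and E2 enzymes, 7 to 9 other muscle ligases, 13 to 17 substrates and partners, 11 to 14 upstream regulators, 14 to 18 F-box, 17 to 18 TRIM and 9 to 13 Kelch genes. The log2 fold changes then ran from -1.01 to -0.97 for Fbxo40, -0.25 to -0.17 for Fbxo32, -0.49 to -0.37 for Fbxl22, -0.35 to -0.30 for Trim63, -0.32 to -0.24 for Trim54, 0.020 to 0.059 for Trim55, -0.84 to -0.71 for Klhl40 and -0.18 to -0.12 for Klhl41. Flnc ran from -0.014 (without HG replicate 1) to 0.048, and Mef2a from -0.034 to 0.0048, above 0 without CON replicate 2, CON replicate 3 or HG replicate 1. The call of Fbxo32 was lost without CON replicate 1 or 4 or HG replicate 1 or 2, and that of Klhl41 without CON replicate 1, 2, 3 or 4 or HG replicate 2, 3 or 4, and with no trend. Over 49 other named genes and 22 alternatives, 930 of 1074 values kept direction and side of the threshold, 120 lost the call, 7 gained it and 17 reversed. The lowest member, Klhl40, had the fewest reads and the widest error.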
